A study of Mus musculus with 2 samples.

Results

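RNA from introns of ubiquitin pathway genes was compared between CIA spleen, from mice with arthritis induced by collagen, and healthy mouse spleen. The members were host genes whose symbol begins with Ube, Ubr, Herc, Rnf, Trim, March, Cul, Fbxo, Fbxl, Fbxw, Asb or Usp followed by a digit. They had to hold at least 1 assembled transcript of class code i, the code for a transcript lying wholly inside an intron of a known gene. The rule used names and position and set no threshold on measured values. Having an assembled transcript still depends on RNA in at least 1 of the 2 libraries. The rule gave 99 host genes of 4346 with such RNA, and 232 transcripts of 12603. The pattern also took Asb17os, a long non-coding RNA gene opposite Asb17, Ube2d-ps, which GENCODE types as a pseudogene, and Usp6nl, named for its likeness to Usp6 and known as a Rab GTPase-activating protein. All 232 transcripts lay within the span of their host in GENCODE M21, and 3 overlapped an annotated exon.

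The CIA group was 1 library of spleen cells from mice immunised to give arthritis against type II collagen, with no collagen source or adjuvant stated, and the healthy group was 1 library of spleen cells from mice given no treatment. Both titles give day 40, but the CIA treatment label places sacrifice at day 42. The labels used here do not state strain, age, sex or how many mice were pooled. A single library on each side allows no test over animals and no replicate check, so every comparison is between 2 libraries. In bulk spleen RNA, fewer cells of a type and less RNA per cell cannot be told apart. Values are FPKM (fragments per kilobase of transcript per 1000000 fragments). Ratios are log2((CIA FPKM + 0.1)/(healthy FPKM + 0.1)), which understates differences of low transcripts, and a host's ratio is the median over its intronic transcripts. A ratio of at least 1 in either direction is called 2-fold. The sequencing depth is unknown, since FPKM keeps no counts.

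Ubiquitin is a small protein that is attached to other proteins and marks many of them for the proteasome or changes their activity. An activating enzyme passes it to a conjugating enzyme (E2, the Ube2 genes), and a ligase (E3) joins it to the substrate. Ligases are HECT proteins (such as the Herc genes and Ube3a), RING proteins (most Rnf, Trim and March genes) or complexes on a cullin scaffold, to which F-box and Asb adaptors bring the substrate. Deubiquitinases, here the Usp genes, remove it. In lymphocytes the system is known for setting antigen receptor and NF-kB signalling.

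The promoters of 3 hosts are shown, picked from those past 2-fold with several intronic transcripts. Any link of these sequences to the ratios was not tested. In Fbxl7 all intronic transcripts were lower in CIA spleen. In Usp36 both were higher, and in Rnf144a the transcript of highest ratio lay just inside the gene. The sequences are from RefSeq (GRCm38.p6), 250 bases before to 50 after the gene's start, at chr15:26895515-26895814 for Fbxl7, chr12:26415213-26415512 for Rnf144a and chr11:118290195-118290494 for Usp36. All 3 lie on the minus strand and are written 5′ to 3′ along the gene. Capitals mark a GC box (GGGCGG on either strand).
Fbxl7: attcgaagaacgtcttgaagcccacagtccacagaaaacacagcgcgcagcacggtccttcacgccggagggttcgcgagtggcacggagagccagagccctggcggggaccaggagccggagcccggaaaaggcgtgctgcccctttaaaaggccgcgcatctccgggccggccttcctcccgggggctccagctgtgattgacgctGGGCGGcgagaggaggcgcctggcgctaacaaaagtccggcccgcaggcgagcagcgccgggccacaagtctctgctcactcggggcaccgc
Rnf144a: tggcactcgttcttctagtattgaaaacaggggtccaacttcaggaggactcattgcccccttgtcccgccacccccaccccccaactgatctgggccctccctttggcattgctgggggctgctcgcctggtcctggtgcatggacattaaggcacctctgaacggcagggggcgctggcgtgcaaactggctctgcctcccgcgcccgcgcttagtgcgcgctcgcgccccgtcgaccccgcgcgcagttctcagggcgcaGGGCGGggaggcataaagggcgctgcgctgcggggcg
Usp36: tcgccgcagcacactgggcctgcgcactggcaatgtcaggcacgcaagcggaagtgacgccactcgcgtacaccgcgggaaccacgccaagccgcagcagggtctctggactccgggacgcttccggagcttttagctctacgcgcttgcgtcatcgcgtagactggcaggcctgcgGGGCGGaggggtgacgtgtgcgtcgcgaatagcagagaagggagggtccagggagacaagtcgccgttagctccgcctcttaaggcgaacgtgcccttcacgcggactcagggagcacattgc
Each of the 3 windows held 1 GC box, and their GC content was 67.7% for Fbxl7, 67.0% for Rnf144a and 65.0% for Usp36. The RefSeq table matched 71 of the 99 hosts by symbol, with 89 promoters, since some genes have several starts. A GC box was present in 64.0% of these 89 promoters, in 58.2% of those of other hosts and in 35.7% of all 32851. The CCAAT box (CCAAT, either strand) was present in 24.7% of the members' promoters, in 37.3% of those of other hosts and in 37.4% of all. The interferon-stimulated response element motif was found on either strand in 3 of the 89, or 3.37%, against 3.44% of all promoters. These matches describe letters in a window and not binding.

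Across the 99 hosts the intronic RNA differed little between the libraries. The median host ratio was 0.15 on the log2 scale, against 0.21 for the 4247 other hosts, a difference of -0.05. The ratio was above 0 in 63 hosts, or 63.6%, against 63% of the other hosts. By the 2-fold rule 7 hosts, or 7.07%, were higher in CIA spleen, where the background of other hosts was 11.8%. There were 5 hosts lower, or 5.05%, where the background was 10.3%. Both shares of the members were below the background, and 87 of the 99 hosts stayed within 2-fold. This did not hold in hosts with 4 or more transcripts. There 2 of 17 members (11.8%) were higher and 1 (5.88%) lower, against 6.66% and 2.48% of 886 other hosts. With 1 transcript the shares were 7.32% and 9.76% of 41 members, against 14.7% and 14.8% of 2136 other hosts. With 2 to 3 they were 4.88% and 0% of 41 members, against 10.4% and 8.16% of 1225. The middle 50% of host ratios spanned 0.57 for the members and 0.86 for the other hosts. The median over all hosts with intronic RNA was 0.20, and subtracting this common shift gave 4 member hosts higher and 8 lower. These were 4.04% and 8.08% of the members, against 8.83% higher and 12.4% lower among the other hosts, so the balance of higher and lower hosts turned with the scaling in both sets.

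Members also had longer and more abundant intronic transcripts. Member transcripts had a median length of 1148.5 bases, against 777 for those of other hosts. Their median levels were 3.09 FPKM in CIA and 2.64 FPKM in healthy spleen, against 2.29 FPKM in CIA and 1.997 FPKM in healthy spleen for other hosts. A mean level of at least 2 FPKM was reached by 76.8% of member hosts and 57.4% of other hosts. Within that class 5.26% of members and 5.29% of other hosts were 2-fold higher, and 0 of 76 members and 2.17% of other hosts were 2-fold lower. At 1 to 2 FPKM, 14.3% of members and 20.4% of other hosts were 2-fold higher, and 19% of members and 19.2% of other hosts were lower. So at 2 FPKM or more the shares of hosts 2-fold higher were nearly equal, and the part of transcript length was not tested. Zinc finger hosts (Zfp and Zbtb, 156 genes) had a median of 0.34 with 12.2% higher and 6.41% lower, and transporter hosts (Slc, 57 genes) a median of 0.26 with 19.3% and 14%.

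**Figure D1:**
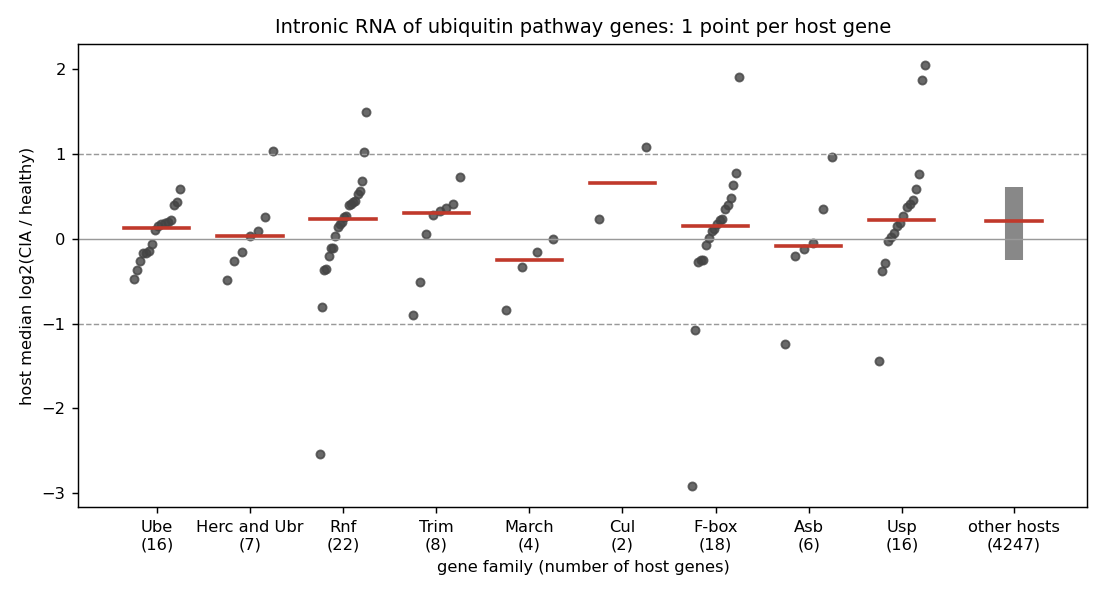
Host median log2 ratio (CIA over healthy, vertical axis) for each of the 99 ubiquitin pathway hosts, grouped by gene family with the number of hosts. Red lines are medians, dashed lines mark 2-fold, and the grey bar is the middle 50% of the 4247 other hosts. Most points lie between the dashed lines, with 7 above and 5 below.

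The 16 Ube hosts were 14 Ube2 genes, the pseudogene Ube2d-ps and the HECT ligase Ube3a. All 16 stayed within 2-fold, between -0.47 for Ube2o, a hybrid of E2 and E3 known for clearing ribosomal proteins in reticulocytes, and 0.59 for Ube2e1. Their median was 0.13, and -0.08 after subtracting the common shift. Ube2k, which builds degradation chains, had 5 intronic transcripts between 5.88 and 10.4 FPKM in CIA spleen and between 5.02 and 11.2 FPKM in healthy spleen. Their ratios ran from -0.10 to 0.36, so the libraries overlapped. Ube2r2, an E2 that works with cullin ligases, had 3 transcripts in the same intron at 15.4, 7.91 and 4.93 FPKM in CIA spleen, against 17.3, 8.44 and 6.04 FPKM in healthy spleen. All 3 were slightly lower in CIA spleen, with a host ratio of -0.17. Ube2e2 had 5 transcripts, all higher in CIA spleen, with ratios from 0.37 to 0.90. Ube3a had 1 transcript at 7.22 FPKM in CIA spleen and 7.99 FPKM in healthy spleen. Both intronic transcripts of Ube2h were higher in CIA spleen, at 16.6 and 8.85 FPKM in CIA spleen, against 12.7 and 6.59 FPKM in healthy spleen.

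Among the 7 Herc and Ubr hosts the median was 0.03, and -0.17 after subtracting the common shift. Ubr7, a PHD finger member of the Ubr family, was the one host at least 2-fold higher. Its single transcript of 211 bases stood at 4.95 FPKM in CIA spleen and 2.35 FPKM in healthy spleen, a ratio of 1.04. Ubr1, the ligase that reads destabilising N-terminal residues, stood at 4.82 FPKM in CIA spleen, against 6.80 FPKM in healthy spleen. Herc6, the main ligase of the ubiquitin-like ISG15 in mice and an interferon-induced gene, had 2 transcripts at 4.07 and 4.23 FPKM in CIA spleen, against 4.92 and 5.10 FPKM in healthy spleen. Both gave a ratio of -0.27, within 2-fold.

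The 22 Rnf hosts had a median of 0.23, or 0.03 after subtracting the common shift, with 2 hosts at least 2-fold higher and 1 lower. Rnf26, an endoplasmic reticulum ligase known for anchoring endosomes and for acting on STING, had 1 transcript at 1.9998 FPKM in CIA spleen and 0.645 FPKM in healthy spleen, a ratio of 1.49. Rnf144a (chromosome 12, 26300964 to 26415254), a ligase known for acting on DNA-PKcs, had 5 transcripts and a host ratio of 1.03. From the 5′ end of the gene these stood at 6.04, 0.993, 3.40, 3.45 and 1.48 FPKM in CIA spleen, against 1.64, 2.16, 1.62, 1.22 and 2.21 FPKM in healthy spleen. Of the 5, 3 were at least 2-fold higher and 2 were lower, 1 of them by more than 2-fold, so the introns of this gene disagreed. The transcript at 6.04 FPKM lay 142 bases from an exon, on the strand of the host, within the first 0.876% of the gene. With FPKM summed over the gene the ratio of Rnf144a was 0.79, under 2-fold.

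At the other end, Rnf217, known for acting on the iron exporter ferroportin, had 1 transcript at 0.219 FPKM in CIA spleen, against 1.75 FPKM in healthy spleen, a ratio of -2.54. Rnf135, also called Riplet, which activates the RNA sensor RIG-I, had 2 transcripts. These stood at 1.96 and 0.549 FPKM in CIA spleen and at 2.02 and 1.82 FPKM in healthy spleen, for a host ratio of -0.81 that rests on the shorter of the pair.

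Rnf150, a membrane-bound RING protein, held the most intronic transcripts, 14, with a host ratio of 0.57. The 7 in the first intron were all higher, at 2.07 to 3.93 FPKM in CIA spleen, against 1.37 to 1.92 FPKM in healthy spleen, with ratios from 0.37 to 1.13. The 6 in the third intron were split, 3 above and 3 below 0, with ratios from -1.10 to 1.77. Those below 0 were 237, 475 and 284 bases long, and those above 0 were 465, 1241 and 882, so place and length were not separated. In Rnf214 the ratios also differed along the gene, but the higher ones lay away from the 5′ end. The 4 transcripts of its sixth intron had nearly equal ratios, 0.45 to 0.49, at 2.06 to 2.97 FPKM in CIA spleen and 1.43 to 2.09 FPKM in healthy spleen. The other 3, nearer the 5′ end, had ratios from -0.18 to 0.01. Rnf115 had 5 transcripts, all higher in CIA spleen, with ratios from 0.14 to 0.95. Introns are numbered here from the 5′ end over the merged exons of all annotated isoforms.

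**Figure D2:**
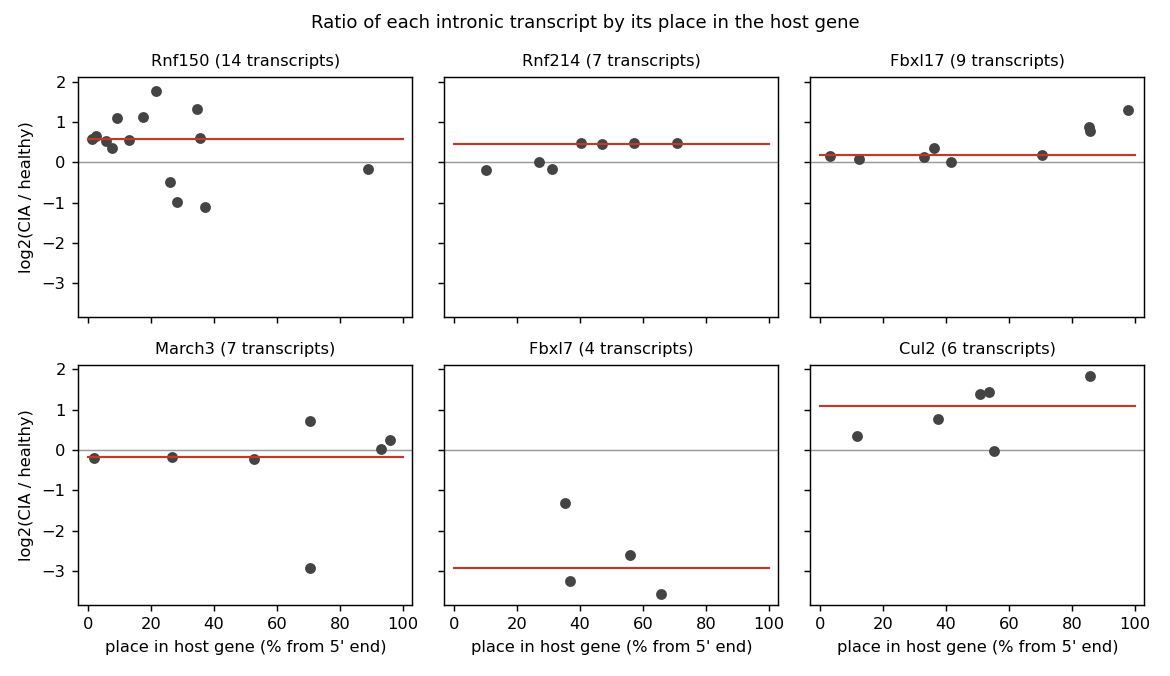
Log2 ratio (CIA over healthy) of each intronic transcript against its place in the host gene, in percent from the 5′ end, for 6 hosts with 4 or more transcripts. Red lines are host medians. The 4 Fbxl7 transcripts all lie below 0, whereas Rnf150 has points on both sides beyond its first intron.

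The 8 Trim hosts had a median of 0.30, or 0.10 after subtracting the common shift, and all stayed within 2-fold. Trim33, a transcriptional cofactor of the TGF-beta pathway, was highest, at 4.45 FPKM in CIA spleen and 2.65 FPKM in healthy spleen. Trim5, whose primate relative restricts retroviruses, stood at 0.978 FPKM in CIA spleen and 1.92 FPKM in healthy spleen, and Trim30b at 1.91 FPKM in CIA spleen and 2.77 FPKM in healthy spleen. Trim7 had 0.0107 FPKM in CIA spleen and 0.00652 FPKM in healthy spleen, the one member transcript under 0.5 FPKM in both.

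The 4 March hosts, membrane ligases that remove surface proteins, had a median of -0.25, and -0.45 after subtracting the common shift. March1, which turns over MHC class II in antigen-presenting cells, had 2 transcripts that pointed in opposite directions. The larger, on the strand opposite to the gene, stood at 23.5 FPKM in CIA spleen, against 13.7 FPKM in healthy spleen, and the other at 1.505 FPKM in CIA spleen, against 2.64 FPKM in healthy spleen. March8 had 1 transcript on the strand opposite to the gene, at 4.35 FPKM in CIA spleen and 7.86 FPKM in healthy spleen, a ratio of -0.84.

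March3 held the most abundant intronic RNA of the set, summing to 60.2 FPKM in CIA spleen and 68.4 FPKM in healthy spleen over 7 transcripts. The 3 in its first intron, the longest of 60449 bases, had ratios from -0.22 to -0.16. MSTRG.18388.2, a spliced March3 transcript, stood at 0.387 FPKM in CIA spleen, against 3.60 FPKM in healthy spleen, a ratio of -2.93. MSTRG.18388.1, an unspliced transcript over the same interval, pointed the other way, at 4.31 FPKM in CIA spleen and 2.58 FPKM in healthy spleen. Summed, this locus stood at 4.70 FPKM in CIA spleen and 6.18 FPKM in healthy spleen, a ratio of -0.39, which is within 2-fold.

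Of the cullins, Cul2 and Cul5 had intronic RNA, and both ratios were above 0. Cul2, the scaffold of the VHL ligase that degrades hypoxia-inducible factors, had 6 transcripts and a host ratio of 1.08. From the 5′ end these stood at 2.25, 2.53, 4.67, 1.93, 1.87 and 2.83 FPKM in CIA spleen, against 1.74, 1.44, 1.71, 0.654, 1.90 and 0.715 FPKM in healthy spleen. The CIA library was higher in 5 of the 6 and at least 2-fold higher in 3. With FPKM summed over the gene the Cul2 ratio was 0.97, and less the common shift the host ratio was 0.88, both just under 2-fold. Cul5, the scaffold for SOCS-box adaptors, stood at 2.90 FPKM in CIA spleen and 2.46 FPKM in healthy spleen.

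The adaptors of cullin ligases held the lowest of the 99 hosts. Fbxl7 (chromosome 15, 26540459 to 26895580), an F-box gene known for acting on Aurora A and survivin, had 4 transcripts in its second intron. From the 5′ end these stood at 0.725, 0.138, 0.216 and 0.0543 FPKM in CIA spleen, against 1.96, 2.16, 1.81 and 1.73 FPKM in healthy spleen. All 4 were at least 2-fold lower in CIA spleen, and the host ratio was -2.92. All 4 reached 1 FPKM in the healthy library alone. Of the 232 member transcripts 231 reached 1 FPKM in at least 1 library, so the lack of overlap here adds nothing to the ratios. The transcripts were 210 to 527 bases long and at least 17410 bases from an exon.

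Over the 18 F-box hosts the median was 0.15, or -0.06 after subtracting the common shift, with 1 host 2-fold higher and 2 lower. Fbxw10 had 1 transcript of 325 bases at 1.82 FPKM in CIA spleen, against 0.410 FPKM in healthy spleen. Fbxo21 had 1 of 317 bases at 0.746 FPKM in CIA spleen, against 1.69 FPKM in healthy spleen. Fbxl18 had 2 transcripts in its first intron that differed in size of change, at 4.34 and 1.84 FPKM in CIA spleen, against 4.25 and 0.573 FPKM in healthy spleen. Fbxw7, which brings cyclin E, MYC and Notch to the ligase, had 3 transcripts with ratios from 0.06 to 0.12, near 0 in every one. Fbxl17, an adaptor for quality control of BTB proteins, had 9 transcripts, all with ratios above 0. The 3 nearest the 3′ end were on the strand opposite to the gene. They stood at 2.81, 4.81 and 2.57 FPKM in CIA spleen, against 1.60, 2.58 and 0.987 FPKM in healthy spleen. The other 6 had ratios of 0.36 or less.

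The 6 Asb hosts had a median of -0.08, and -0.29 after subtracting the common shift, with 1 host lower by 2-fold. Asb17, a testis-expressed adaptor gene, had 1 transcript of 1911 bases at 1.14 FPKM in CIA spleen and 2.82 FPKM in healthy spleen, a ratio of -1.24. This transcript had no strand and also lay within the span of Asb17os, so it could not be assigned to 1 of these genes. The annotated Asb17os isoform spanning it stood at 0.821 FPKM in CIA spleen, against 2.32 FPKM in healthy spleen, a ratio of -1.40. A shorter Asb17os isoform beside it stood at 4.32 FPKM in CIA spleen and 4.78 FPKM in healthy spleen. An assembled isoform sharing a splice site with Asb17 stood at 3.60 FPKM in CIA spleen and 3.76 FPKM in healthy spleen. Asb5 had 2 transcripts that disagreed, at 2.27 and 1.55 FPKM in CIA spleen, against 0.342 and 2.21 FPKM in healthy spleen.

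The 16 Usp hosts had a median of 0.23, or 0.02 after subtracting the common shift, with 2 at least 2-fold higher and 1 lower. Usp36 (chromosome 11, 118259651 to 118290244), a nucleolar deubiquitinase, had 2 transcripts at 4.82 and 2.45 FPKM in CIA spleen, against 2.09 and 0.328 FPKM in healthy spleen. Both were at least 2-fold higher, with a host ratio of 1.87 and 1.55 for summed FPKM. Usp35 had the highest host ratio, 2.05, but its 2 transcripts disagreed. One of 240 bases stood at 1.94 FPKM in CIA spleen and was listed at the floor of 0.0001 FPKM in healthy spleen. The other stood at 2.18 FPKM in CIA spleen and 2.61 FPKM in healthy spleen. The host ratio averages -0.25 and a ratio against the floor that depends on the pseudocount. Summed, Usp35 stood at 4.12 FPKM in CIA spleen and 2.61 FPKM in healthy spleen, a ratio of 0.64. Usp28, known for stabilising MYC, stood at 3.80 FPKM in CIA spleen and 2.19 FPKM in healthy spleen. Usp48 had 1 transcript at 0.849 FPKM in CIA spleen, against 2.48 FPKM in healthy spleen. The Usp48 transcript was spliced, opposite to its host, and overlapped an exon. Usp16, which removes ubiquitin from histone H2A, had 2 transcripts that disagreed, at 2.26 and 1.59 FPKM in CIA spleen, against 0.771 and 1.94 FPKM in healthy spleen. Usp32 had 5 transcripts, all on the strand opposite to the gene and all lower in CIA spleen, with ratios from -0.92 to -0.06.

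**Figure D3:**
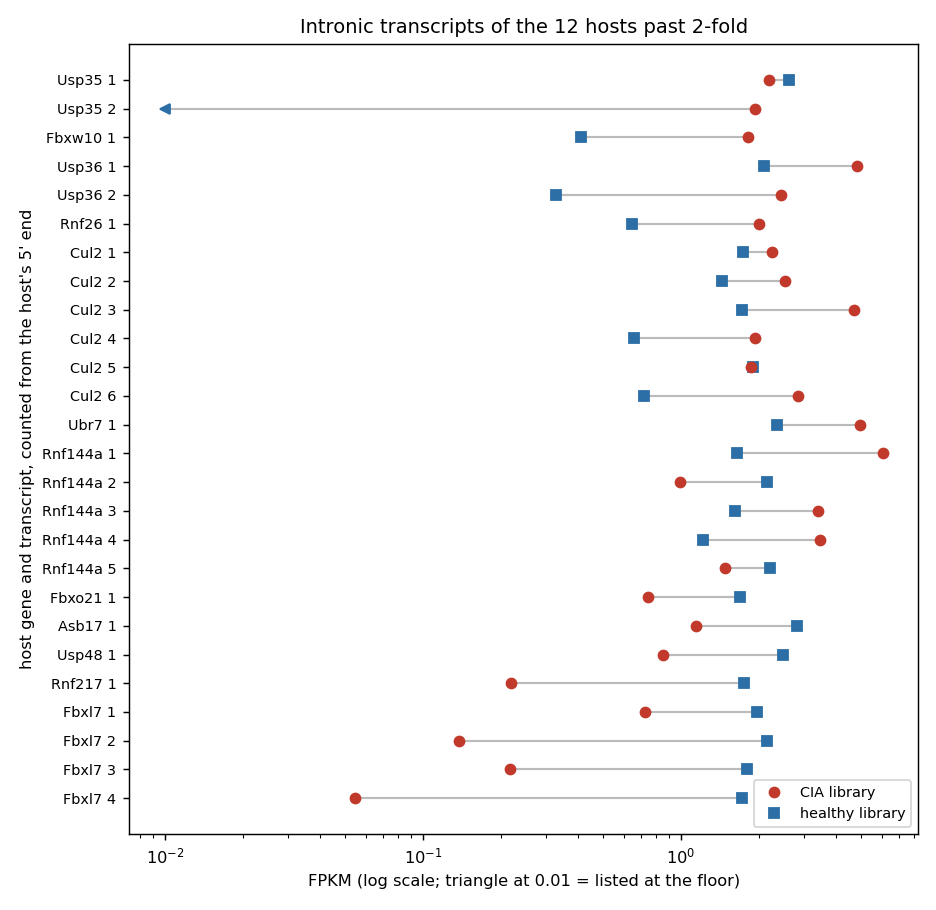
FPKM (log axis) in CIA spleen (circles) and healthy spleen (squares) of the 26 intronic transcripts in the 12 hosts past 2-fold, 1 row per transcript, numbered from the 5′ end of the host. Hosts run from Usp35, the highest ratio, at the top to Fbxl7, the lowest, at the bottom, and the triangle marks the Usp35 value listed at the floor. Rows of Usp35, Cul2 and Rnf144a point both ways, whereas all 4 Fbxl7 rows point one way.

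Transcripts under 500 bases were more frequent in the hosts past 2-fold. In the 7 higher hosts 13 of 18 transcripts, or 72.2%, were under 500 bases, and in the 5 lower hosts 5 of 8, against 26.7% in the other 87 hosts. The middle 50% of ratios spanned 1.29 over the 73 member transcripts under 500 bases and 0.38 over the 90 of at least 2000 bases. In other hosts the spans were 1.75 and 0.56 for the same lengths, so the wider spread of short transcripts was shared. With transcripts of at least 500 bases alone, a choice made after seeing the data, 5 of 79 member hosts, or 6.33%, were 2-fold higher against 8.4% of other hosts, and 3, or 3.8%, were lower against 3.77%. Asb17, Rnf26 and Usp48, with 1 transcript each, and the median transcript of Rnf144a were over 500 bases. At the level of transcripts, 23 of 232, or 9.91%, were 2-fold higher against a background of 15.7%, and 18, or 7.76%, were lower against 10.3%.

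**Figure D4:**
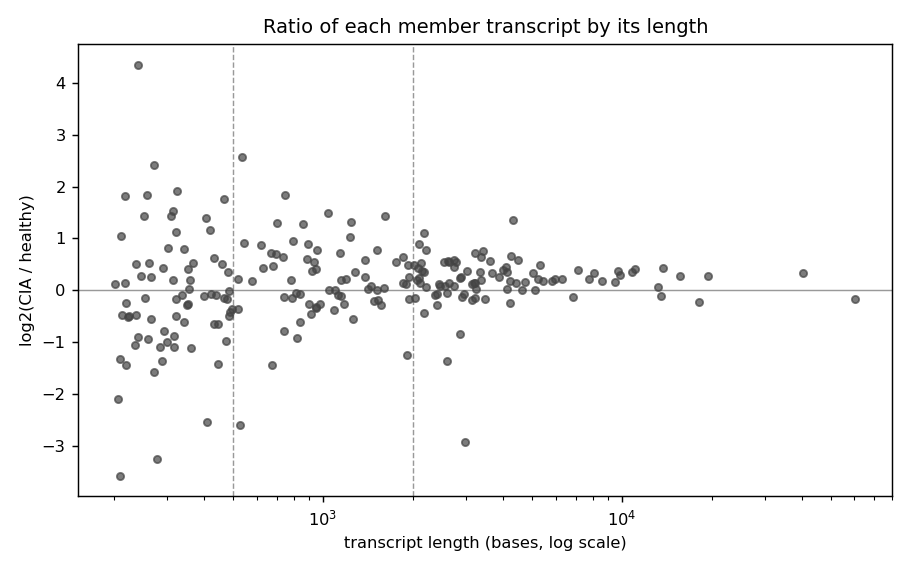
Log2 ratio (CIA over healthy) of each of the 232 member transcripts against its length in bases (log axis), with dashed lines at 500 and 2000 bases. The points spread widely under 500 bases and narrow towards the right.

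Transcripts of one host agreed in direction in a minority of genes. Of 27 member hosts with at least 3 transcripts, 7 had all above 0, 3 had all below 0 and 17 were mixed. The share on one side of 0 was 37%, near the background of 33.5% among 1308 other hosts. The range of ratios within a host had a median of 1.05 for members and 1.44 for other hosts. Transcripts of a host share its source and are not replicates.

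In structure, 205 of the 232 member transcripts had 1 exon, and 139, or 59.9%, had no strand, against 75.3% in other hosts. A strand opposite to the host was given to 24.1% of member transcripts, against 12.2% of those in other hosts, and the strand of the host to 15.9% and 12.5%. Of the 27 spliced ones, 20 were opposite to the host, or 74.1%, against 61.4% of 880 spliced transcripts in other hosts. Opposite transcripts had a median ratio of 0.08 over 56 members and 0.30 over 1501 in other hosts. The first intron held 27.6% of member and 23.4% of other transcripts, and the median distance to a host exon was 1676 and 3265 bases.

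Other transcripts were read at the same loci. These were annotated long non-coding RNA within the host spans, on either strand, and assembled transcripts of other classes. The mRNA of the hosts was not used here. Within the spans of 23 member hosts, 34 annotated long non-coding transcripts reached 0.5 FPKM in a library, with a median ratio of 0.17, against 0.30 for all annotated ones. Of these, 3 were 2-fold higher, or 8.82% against a background of 15.7%, and 3 lower, or 8.82% against 6.13%. AV039307, inside Ubr1, stood at 2.39 FPKM in CIA spleen and 0.279 FPKM in healthy spleen, in the direction opposite to the intronic Ubr1 transcript. Gm44237, inside March8, stood at 0.775 FPKM in CIA spleen, against 1.69 FPKM in healthy spleen, in the same direction as the intronic RNA of March8. Gm15356, inside March1, stood at 11.8 FPKM in CIA spleen and 8.08 FPKM in healthy spleen. The 16 assembled transcripts of other classes that carry a member's name had a median ratio of 0.07, from -3.25 to 0.86. The lowest was MSTRG.11437.1 of Ube2e2, at 0.0541 FPKM in CIA spleen, against 1.36 FPKM in healthy spleen. The 5 intronic transcripts of Ube2e2 were all higher in CIA spleen.

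Of 126 other ubiquitin pathway genes listed by name, 52 had intronic RNA, with a median ratio of 0.21, 2 at least 2-fold higher (3.85%) and 0 lower, by the size rule with no test. Among the class i hosts outside the members these shares were 11.8% and 10.3%, and 63% were above 0. Wwp1, a HECT ligase, was among the higher ones, at 3.05 FPKM in CIA spleen and 1.27 FPKM in healthy spleen. RING and RBR ligases had a median of 0.25 over 23 hosts, with 20 above 0, or 87%. All 8 other deubiquitinases were above 0, with a median of 0.33. Parts of cullin ligases had a median of -0.41 over 7 hosts, the lowest being Dcaf1 at -0.86. HECT ligases had 0.24 over 10 hosts, and the anaphase-promoting complex 0.24 over 3. Uba3, part of the activating enzyme of the ubiquitin-like NEDD8, had -0.07. Traf3, a brake on non-canonical NF-kB signalling, summed to 17.8 FPKM in CIA spleen and 9.07 FPKM in healthy spleen. Cblb, a restraint on T cell activation, had 5 transcripts with a host ratio of 0.26, of which 4 were above 0 and 1 was listed at the floor in CIA spleen. The T cell tolerance genes Itch and Rc3h1 had ratios of -0.28 and -0.21, with all their 2 and 4 transcripts lower in CIA spleen, and Birc6 had 0.13.

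Introns of cell type marker genes were measured the same way. Of 12 T cell genes 4 had intronic RNA, Bcl11b, Lef1, Themis and Skap1. All 4 were at least 2-fold higher, where the share was 11.8% over the class i hosts outside the members. Their summed levels were 24.1 to 48.7 FPKM in CIA spleen and 9.90 to 17.1 FPKM in healthy spleen. Of 10 B cell genes 4 had it, with ratios from 0.69 to 0.91 and sums of 54.3 to 114.3 FPKM in CIA spleen and 30.4 to 74.6 FPKM in healthy spleen. In Ebf1, the highest, 6 transcripts were above 0 and 3 below, and the ratio for summed FPKM was 0.51. In Pax5 1 of 5 transcripts was below 0, and in Bank1 and Ralgps2 all were above 0. The erythroid genes Ank1 and Sptb had -0.34 and -0.31, of 9 listed, and the cell cycle genes Diaph3 and Brip1 -0.69 and -0.27, of 9. Of 10 myeloid genes Spi1 alone had intronic RNA, at 0.28, and of 6 stromal and endothelial genes Pecam1 had 1.08 and Ptprb -0.9997. None of 4 platelet genes had a class i transcript. The medians of the ubiquitin pathway families lay between -0.25 and 0.66, below those of the T cell and B cell genes, 1.43 and 0.78. The part of cell makeup in the members' values was not tested.

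The authors' deposited table lists 4 member transcripts, or 1.72%, with a p below 0.05, against 1.11% of transcripts of other hosts. The significance mark in the authors' deposited table, whose rule the file does not state, was on 9 member transcripts, or 3.88%, against 5.4% in other hosts. Besides the 4 with a p below 0.05, the mark in the authors' deposited table was on 2 transcripts of Rnf150 and 1 each of Rnf144a, Rnf169 and Usp36. The 4 with a p below 0.05 in the authors' deposited table were MSTRG.18388.2 of March3 with 4.75e-06, MSTRG.34507.1 of Rnf169 with 0.0234, Asb17 with 0.0340 and Usp16 with 0.0415. The March3 transcript was the one member with a q below 0.05 in the authors' deposited table, at 0.000439. Rnf169, a chromatin-bound protein at DNA breaks, had 4 transcripts. Of these, MSTRG.34507.1 stood at 2.79 FPKM in CIA spleen, against 7.33 FPKM in healthy spleen. The other 3 were higher, at 4.79, 9.16 and 8.32 FPKM in CIA spleen, against 2.86, 3.54 and 5.32 FPKM in healthy spleen. No p-value here covers variation among mice.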

How the data were processed

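Total RNA of spleen cells was extracted with TRIzol and depleted of ribosomal RNA with Ribo-Zero, per the labels' protocols, in 1 CIA and 1 healthy library. StringTie is named in the submitters' processing notes. No aligner, strand setting or statistical method is named by the labels used here. Each transcript's FPKM was deposited by the authors, per the file headers. A value listed at exactly 0.0001, which recurs across transcripts, is called the floor. The authors' ratio (fold) and its log2, per the file headers, run CIA over healthy, and the ratio equalled the quotient of the FPKM values within a relative tolerance of 0.0001 for all 16840 assembled transcripts. The authors' deposited p-value and q-value are only quoted. Columns were matched to the groups by name, model for CIA and control for healthy. Positions matched GENCODE M21 (GRCm38) exactly for each of the 15172 annotated transcripts. Of the annotated rows, 2 with damaged values were left out.

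Host ratios were medians of log2((CIA FPKM + 0.1)/(healthy FPKM + 0.1)) with no filter, and a size rule of 2-fold stood in for a test. Depth is unknown, so no counting interval is given. The members and lists were chosen with earlier results of these data known. Named hosts, with at least 1 FPKM in a library, were the 10 highest and 10 lowest, the 5 with most transcripts, the 5 of highest summed FPKM, the extremes of each family, and listed immune-related genes. Of these immune-related genes Cul3, Usp18, Rnf213, Rnf128 and Trim30a, and of the listed pathway genes Tnfaip3, Cyld and Peli1, had no class i transcript. Other hosts named in the text were chosen after their values were seen. A few genes that the rule or lists take are not reported here by name. The sequence of the introns was not used here, and promoters of 3 hosts were shown in its place. Reads of a gene and an antisense partner could not be told apart. Alternatives were other pseudocounts, filters, centring, summing, units, exon numbers, lengths and a 4-fold rule. Python 3.11.15, numpy 2.4.6, pandas 2.3.3 and matplotlib 3.10.9 were used.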

Additional observations from a re-analysis of the deposited data

How the results depend on the processing

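No paired analysis was possible because a single library stood on each side, and so no library could be left out. The planned settings kept the medians of members, of other hosts and their difference within 0.1 on the log2 scale, except centring, which took the members to -0.051 and the others to 0.00286 by construction. A pseudocount of 1 FPKM gave 2 member hosts 2-fold higher and 2 lower, where other hosts had 5.53% and 4.94%. The counts were 4 and 8 after centring (other hosts 8.83% and 12.4%), 1 and 2 under the 4-fold rule (3.74% and 4.19%), and 4 and 1 among the 58 hosts with at least 2 transcripts (8.86% and 5.78%). Single transcripts, a larger set, gave 23 and 18 (15.7% and 10.3%). Summing FPKM left 4 higher, or 4.04% against 11%. With transcripts of at least 500 bases, added after seeing the data, 3 were lower, or 3.8% against 3.77%. Leaving out Asb17os, Ube2d-ps and Usp6nl, also added later, left the counts at 7 and 5. Among named hosts under other settings, 186 values kept their side of 2-fold, 14 came within it and 4 passed it, none reversing. Those that came within 2-fold with a pseudocount of 1 FPKM were Usp35, Rnf26, Cul2, Ubr7, Rnf144a, Fbxo21, Asb17 and Usp48. Depth is unknown, so the counting error of these ratios could not be given.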
